A study of Macaca mulatta with 24 samples.

Results

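The 9 chemokine receptor genes CXCR5, CCR6, CXCR3, CXCR6, CCR4, CX3CR1, CCR1, CCR2 and CXCR4 were followed in whole blood of rhesus macaques after total body irradiation. Members were all probes that the scanner output names for one of these genes, which gave 14 of 43603 probes, or 9 of 15041 genes with a symbol. Blood RNA depleted of globin transcripts was hybridized to 24 one-colour Agilent arrays of a rhesus design, with 7 arrays before irradiation and 4, 6 and 7 arrays at days 3, 5 and 7 after 4 Gy. The arrays came from adult animals of Chinese origin, numbered 1 to 7 by the replicate number in the labels, 4 males and 3 females, and all of them were irradiated. Day 3 held 3 males and 1 female, day 5 held 4 males and 2 females, and the pre-irradiation and day 7 groups held all 7 animals. The labels give the pre-irradiation blood as day 0 and a dose of 0 Gy and name X-rays, while the study's methods put that blood before irradiation by some days and name a cobalt gamma source. The pre-irradiation arrays of the same animals were the only controls, and arrays of sham-irradiated animals were not analysed here.

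Chemokine receptors are G-protein-coupled receptors that steer leukocytes along gradients of small secreted proteins, the chemokines. Signals through Gi proteins turn on integrins and the actin skeleton, so that a cell stops on a vessel wall, crosses it or stays in a niche. Each blood leukocyte carries its own set of receptors, and B cells, helper T cells, cytotoxic cells and monocytes can be told by them. CXCR4 holds stem cells and maturing leukocytes in the marrow, CCR2 lets monocytes leave it, and CXCR5 brings B cells into lymphoid follicles.

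The probes are 60 bases long, and their positions are those of the scanner output in the rheMac2 build. The exon and UTR annotation of that build was not used here. Single probes stood for CCR2 at chr2:90158386-90158445, CCR6 at chr4:164079801-164079860, CXCR3 at chrX:70535237-70535296, CCR4 at chr2:175430280-175430339 and CXCR4, while CCR1, CXCR5 and CXCR6 had 2 probes each and CX3CR1 had 3. The brightest probe stands for its gene below, at chr14:117292360-117292419 for CXCR5, chr2:90580802-90580861 for CXCR6, chr2:97258742-97258801 for CX3CR1 and chr2:90327316-90327375 for CCR1. The receptors on chromosome 2 include CCR1, CCR2 and CXCR6 close together, in the cluster of chemokine receptor genes. The sequences of the CXCR4 probe and of 4 further probes are shown because each carries a result below on its own or against the brightest probe of its gene, and each has at least 1 reading frame with no stop codon. Capitals mark the codons of the NPxxY motif, a signature of the last membrane segment of this receptor class. The codons were found in the CXCR4 probe and in no other receptor probe, against 0.436% of all probes on the strand printed and 0.633% on either strand.
CXCR4, chr13:116020548-116020607, plus strand: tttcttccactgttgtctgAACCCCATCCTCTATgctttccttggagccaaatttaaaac
CX3CR1, chr2:97257641-97257700, plus strand: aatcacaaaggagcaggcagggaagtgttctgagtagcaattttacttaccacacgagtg
CX3CR1, chr2:97257532-97257591, plus strand: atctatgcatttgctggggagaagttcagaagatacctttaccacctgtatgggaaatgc
CCR1, chr2:90326127-90326186, plus strand: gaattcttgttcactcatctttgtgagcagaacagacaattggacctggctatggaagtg
CXCR6, chr2:90581590-90581649, minus strand: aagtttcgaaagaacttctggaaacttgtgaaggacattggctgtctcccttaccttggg

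CXCR5 was lower on all 3 days and CX3CR1 higher at days 3 and 5, and the other 7 receptors passed the test in their brightest probe on none of the days. With the animal as a block CXCR5 kept its calls, CX3CR1 passed on no day, and CXCR6 was lower at day 5. Signals below are Agilent's processed intensities after each array was shifted to the median array, and changes are differences of mean log2 signal tested by limma over all probes, two-sided, at a Benjamini-Hochberg adjusted p under 0.005. At day 3, 6 of 14 receptor probes passed, 4 higher and 2 lower, or 42.9% of the receptor probes beside 13.5% of all 27127 probes tested (5.43% higher and 8.03% lower). At day 5, 4 of 14 passed, 2 higher and 2 lower, or 28.6% beside 16.7% of 27133 (7.15% higher and 9.59% lower). At day 7, 1 of 14 passed, a lower one, or 7.14% beside 10.9% (3.6% higher and 7.28% lower). The probes called at days 3 and 5 include repeat probes of the same genes, and by brightest probe 2 of 9 genes passed on each of these days and 1 at day 7. With all groups in 1 fit 2 of 14 passed at day 5 beside 17.8% of all probes, and with the session as a block 0 of 14 passed at day 3 beside 0.136%. At day 3 the animal as a block left 1 of 14 beside 2.77%, and leaving out animal 4 left 1 of 14 beside 3.19%. At day 7 leaving out animal 1 gave 1 of 14 beside 6.1%. The 14 probes had median log2 changes of −0.40, 0.34 and 0.57 in order of day, and the 9 genes by brightest probe −0.49, 0.29 and 0.48. Over all probes the median was 0.02 on each day, which the alignment of the arrays sets near 0. All 14 probes passed the filter on dim probes, which asked for 4 or more of 24 arrays with a signal well above background, and 9 of them were well above background on all 24.

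**Figure D1:**
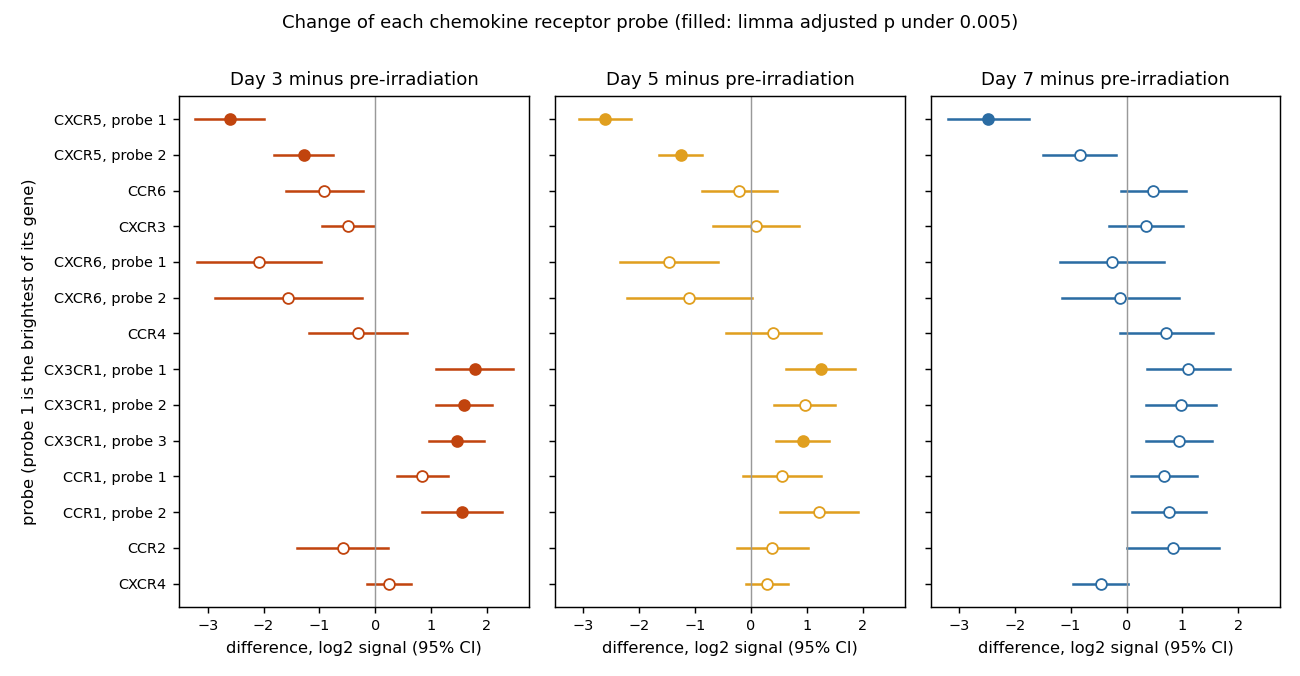
Difference in mean log2 signal of each of the 14 receptor probes between each day and the 7 pre-irradiation arrays, with 95% confidence intervals from limma; filled points passed an adjusted p under 0.005. The brightest CXCR5 probe sits between −2.61 and −2.48 on the 3 days, the CX3CR1 probes sit between 0.93 and 1.78, and the intervals of most other receptors reach or lie near 0. CCR2 was not well above background on any pre-irradiation or day 3 array.

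There were 6 slides with 4 arrays each and 2 scan sessions, which bears on how the days can be compared. Session 1 held 6 pre-irradiation and 6 day 7 arrays, while session 2 held all day 3 and day 5 arrays, 1 day 7 array and the pre-irradiation array of animal 5 alone. Day 7 was thus compared with controls of its own slides, whereas day 3 and day 5 within session 2 had a single control array. Values within a session or with it as a block are given beside most results of those days. Between 48.3% and 61.2% of probes were well above background on an array, with the lowest and highest array at days 7 and 5. The precision of each value is limited by how many arrays its group had.

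CXCR5, the receptor for CXCL13 that brings B cells and follicular helper T cells into follicles, had the largest fall among the receptors. Its signal ran from 5269 to 9142 before irradiation, with a median of 6544. At day 3 the 4 arrays read 756, 804, 1408 and 1941. At day 5 the lowest, median and highest signals were 696, 1325 and 1435, and at day 7 they were 587, 1175 and 3029. Every array after irradiation lay below all 7 pre-irradiation arrays, with no overlap on any day. Mean log2 signal changed by −2.61 at day 3 (SE 0.28, n = 4 against 7, limma adjusted p 0.000117), a level 6.09-fold lower. The change was −2.61 at day 5 (SE 0.22, n = 6, limma adjusted p 1.9e-06) and −2.48 at day 7 (SE 0.34, n = 7, limma adjusted p 0.000122). Each animal was lower than before its own irradiation, with changes from −3.48 to −0.81 log2 units at day 7 (7 of 7 animals), which was the widest range of the 3 days. Day 7 also had the widest spread among arrays, with an SD of 0.90 log2 units beside 0.35 before irradiation.

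The call of CXCR5 at day 7 was kept within scan session 1 (log2 change −2.45, limma adjusted p 0.000826). Within session 2, against the array of animal 5, the change was −3.01 at day 3 (limma adjusted p 0.1) and −3.01 at day 5 (limma adjusted p 0.0138), as low or lower than over all arrays but past no threshold. With the session as a block the adjusted p was 0.014 for day 3 and 0.00145 for day 5, and with the slide as a block day 3 gave −3.55 (0.0259). Blocking on the animal, the call held on all 3 days (limma adjusted p 0.00357, 0.000104 and 0.000552), and it held when any of the 7 animals was left out. The second CXCR5 probe, at chr14:117290980-117291039, was dim, and it was well above background on 7 of 7 control arrays and on 2 of 4, 4 of 6 and 6 of 7 arrays after irradiation. Its log2 change was −1.28 at day 3 and −1.25 at day 5, which passed (limma adjusted p 0.00244 and 0.000153), and −0.84 at day 7, which did not (0.0553). For this CXCR5 probe the animal as a block ended the call of day 3 (adjusted p 0.0122) and kept that of day 5 (0.00195), and the session as a block ended both (−1.34 with 0.122 and −1.31 with 0.0443). Its day 3 call was also lost without animal 2, 4 or 7 (adjusted p 0.0166, 0.0142 and 0.0118) and with the slide as a block (0.127), and with normexp background correction, where the change was −0.34 (0.01). Over the 24 arrays the 2 CXCR5 probes correlated with r = 0.60, the lowest agreement among probes of a receptor.

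Without a block, B-cell markers were lower on the same days as CXCR5, and so were all 8 erythroid markers tested. Array by array the gene most like CXCR5 was SLC4A1 of red cells (r = 0.95), as given below. At day 7 animal 3 had a summed B-cell signal of 4374 with a CXCR5 signal of 587, and animal 4 had 6210 with 3029. Of 10 genes fixed as B-cell markers 9 were tested, and 8 were lower on each day. Their summed signal lay between 31064 and 43737 on the controls, against 2042 to 4738, 2189 to 3323 and 2792 to 6210 in order of day, with no overlap. With the session as a block 2 of 9 B-cell markers passed at day 3 and 6 at day 5, with medians of −3.11 and −3.24, and within session 1 it was 7 of 9 at day 7. Of the defining markers, PAX5 was well above background on no array in any group. The part of B-cell number in the fall of CXCR5 was not tested, and in whole blood fewer cells of a type and less RNA per cell cannot be told apart.

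CCR6, the CCL20 receptor of B cells, memory T cells and dendritic cells, did not fall in the same way. Its signal was 84.4, 137 and 191 at the lowest, median and highest array before irradiation. At day 3 it read 45.3, 49.1, 86.0 and 140, at day 5 the lowest, median and highest were 71.0, 100.1 and 265, and at day 7 they were 109.9, 188 and 387. The values of 265 and 387 were animal 2, whose arrays were the dimmest of their day. The groups overlapped on every day, although 2 of 4 arrays at day 3 were below all controls and 3 of 7 at day 7 were above them. The log2 changes were −0.91 at day 3 (limma adjusted p 0.0414), −0.20 at day 5 (0.646) and 0.48 at day 7 (0.203). Within session 2 the change was −1.22 at day 3 and −0.51 at day 5. Between day 3 and day 7 CCR6 differed by 1.39 log2 units (95% interval 0.54 to 2.25, limma adjusted p 0.0333), higher at day 7 in 4 of 4 animals, which did not pass. The 2 arrays of each such pair were from different scan sessions.

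**Figure D2:**
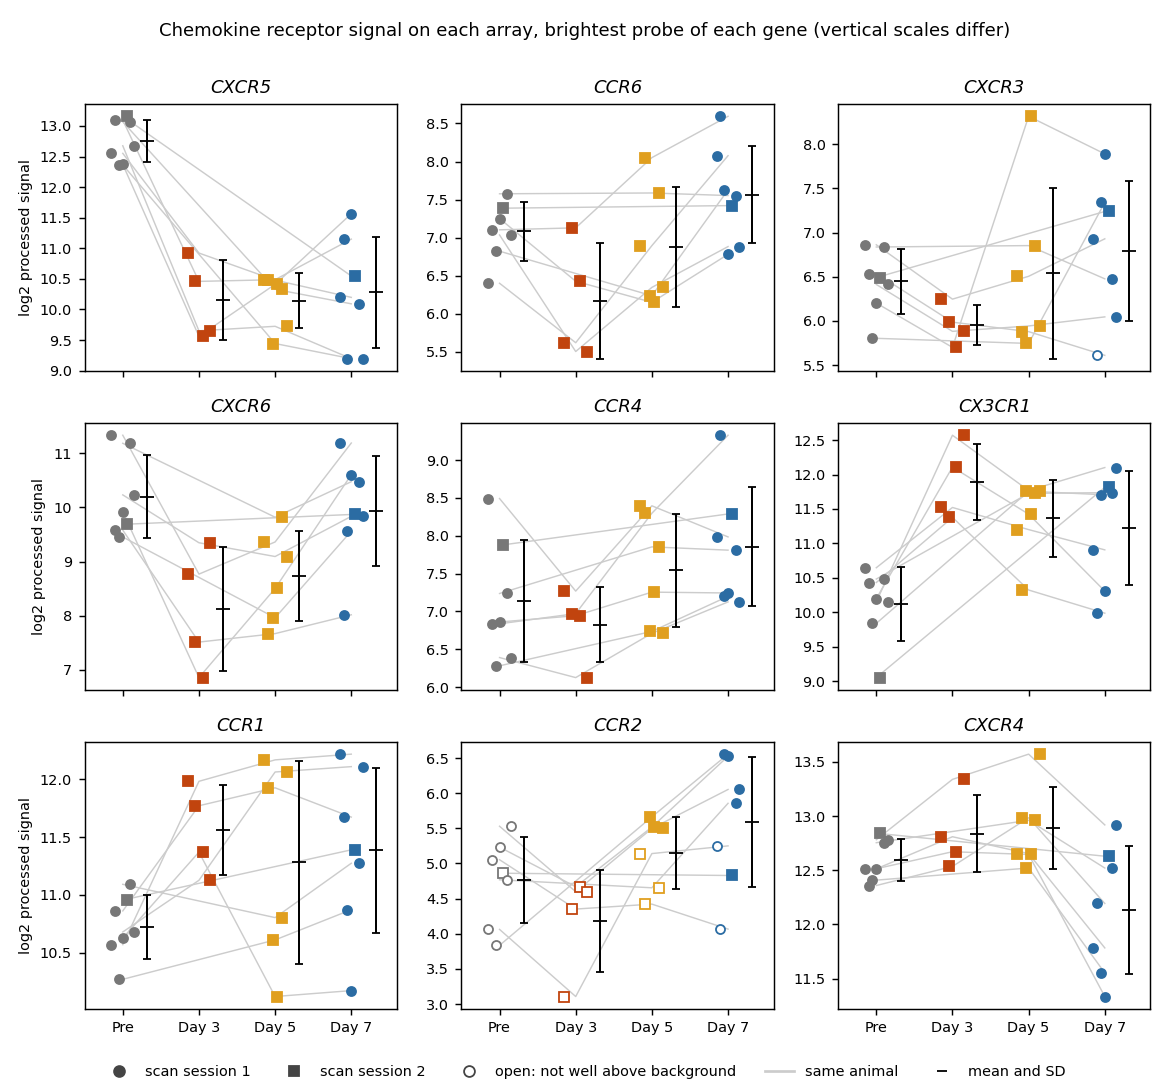
Log2 processed signal of the brightest probe of each receptor on each of the 24 arrays before irradiation and at days 3, 5 and 7, with grey lines joining arrays of the same animal and bars for the group mean and SD. Circles and squares are scan sessions 1 and 2, open symbols are arrays on which the probe was not well above background, and each panel has its own scale. CXCR5 after irradiation lies below all controls on every array, whereas CXCR3, CCR4 and CCR6 overlap on every day.

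The receptors of helper and memory T cells were led by CXCR6, the CXCL16 receptor of tissue-homing T cells and NK cells. CXCR6 signal was 701, 968 and 2578 at the lowest, median and highest array before irradiation. At day 3 the 4 arrays read 116, 183, 436 and 651, all below the lowest control. At day 5 the lowest, median and highest signals were 203, 454 and 902, with 5 of 6 arrays below all controls, and at day 7 they were 259, 935 and 2333, with 1 of 7 below. The log2 changes were −2.08 at day 3 (SE 0.51, limma adjusted p 0.00865), −1.46 at day 5 (SE 0.41, adjusted p 0.0126) and −0.26 at day 7 (SE 0.44, adjusted p 0.692), so none passed. With the animal as a block the day 5 change of CXCR6 was −1.55 and passed (limma adjusted p 0.00042), and it was lower in 6 of 6 animals, from −1.97 to −1.14 log2 units. Within session 2 the changes were −1.57 at day 3 and −0.95 at day 5, with SE of 0.95 and 0.76, and adjusted p of 0.451 and 0.552.

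CXCR6 was higher at day 7 than at day 3 by 1.81 log2 units (95% interval 0.54 to 3.09, limma adjusted p 0.0537), in 4 of 4 animals. It was higher at day 7 than at day 5 by 1.20 (95% interval 0.18 to 2.22, adjusted p 0.171), in 6 of 6 animals. Neither difference between days passed, and the arrays of each of these pairs were from different scan sessions. The second CXCR6 probe, printed above, followed the first over the 24 arrays (r = 0.94) and passed on no day without a block. With the animal as a block it passed at day 5, and over all alternatives its day 5 change ranged from −1.29 to 0.03. It was well above background on 5 of 7 control arrays and on 2 of 4, 3 of 6 and 6 of 7 arrays after irradiation, with medians of 56.4 before and 30.4, 30.5 and 77.9 after it. Of 12 genes fixed as T-cell markers 10 were tested, CD3E and CD8A having no probe named for them, and IL7R alone was lower at days 3 and 5 and none at day 7. None of the 10 passed at day 3 or day 5 by limma once the session was a block. Their summed signal lay between 83561 and 123624 on the controls, against 43213 to 103401, 59750 to 95400 and 79287 to 132048 in order of day, and the part of T-cell number in the CXCR6 values was not tested.

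CXCR3, the receptor of activated and interferon-producing T cells for CXCL9, CXCL10 and CXCL11, passed on no day. Its signal was 55.9, 89.9 and 116 at the lowest, median and highest control, and read 52.0, 59.0, 63.4 and 76.0 at day 3. At day 5 the lowest, median and highest were 53.7, 76.2 and 318, and at day 7 they were 48.9, 122 and 237. The value of 318 was animal 4, which also had the highest CXCR3 at day 7. The log2 changes were −0.49, 0.09 and 0.34 (limma adjusted p 0.0884, 0.871 and 0.444), with overlap between groups on each day. Without animal 4 the day 5 change of CXCR3 was −0.30, with its sign turned. Within session 2 the changes were −0.54 at day 3 and 0.05 at day 5.

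CCR4, the CCL17 and CCL22 receptor of type 2 helper and regulatory T cells, passed on no day either. Its signal was 77.8, 116 and 360 at the lowest, median and highest control and 69.8, 123, 125 and 154 at day 3. At day 5 these 3 values were 104.8, 192 and 337, and at day 7 they were 139.7, 224 and 643. The log2 changes were −0.31, 0.40 and 0.72 (limma adjusted p 0.572, 0.459 and 0.189), and the groups overlapped throughout. Within session 2 CCR4 gave −1.05 at day 3 and −0.33 at day 5, so that the sign of day 5 turned there. At day 7 CCR4 was higher than before irradiation in 6 of 7 animals, and the animals ranged from −0.51 to 2.49 log2 units. The values of 643 and 2.49 were animal 2, whose day 7 array was the dimmest of that day, with a median signal of 16.8 before alignment.

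CX3CR1, the fractalkine receptor that marks nonclassical monocytes and cytotoxic NK and T cells, was the only receptor whose brightest probe passed as higher. Its signal was 530, 1174 and 1603 at the lowest, median and highest control. At day 3 the 4 arrays read 2661, 2941, 4416 and 6088, all above the highest control. At day 5 the lowest, median and highest signals were 1280, 3069 and 3489, and at day 7 they were 1014, 3342 and 4396, with 5 of 6 and 5 of 7 arrays above all controls. The remaining arrays, which overlapped with the controls, were animal 2 at day 5 and animals 2 and 4 at day 7. The arrays of animal 2 were the dimmest of their day, with a median signal over all probes of 30.5 and 16.8 before alignment. The other arrays had 50.3 to 104.4 at day 5 and 56.5 to 94.1 at day 7, with 78.2 for animal 4. Without animal 2 the changes of CX3CR1 were 1.51 at day 5 (limma adjusted p 0.00173) and 1.37 at day 7 (0.012). The part of array brightness in the values of animal 2 was not tested. CX3CR1 rose by 1.78 log2 units at day 3 (SE 0.32, n = 4 against 7, limma adjusted p 0.00171), 3.44-fold, and by 1.25 at day 5 (SE 0.29, n = 6, adjusted p 0.00422), 2.38-fold. The difference at day 7 was 1.11 (SE 0.35, n = 7, limma adjusted p 0.0275), which did not pass, and day 7 and day 3 differed by −0.67 (95% interval −1.60 to 0.25, adjusted p 0.295).

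The 3 CX3CR1 probes moved together over the 24 arrays, with r from 0.95 to 0.97. The probe at chr2:97257641-97257700 changed by 1.59, 0.97 and 0.98 log2 units on the 3 days and the probe at chr2:97257532-97257591 by 1.46, 0.93 and 0.94. At day 3 all 3 probes passed, at day 5 the brightest and the probe at chr2:97257532-97257591 did, and at day 7 none did. The control array of animal 5 had the lowest CX3CR1 of all 24 arrays, so that within session 2 the changes were 2.84 at day 3 (limma adjusted p 0.0876) and 2.32 at day 5 (adjusted p 0.059), larger and without a call, and with the session as a block the adjusted p was 0.0106 and 0.0105. With the slide as a block day 3 gave 3.29 (adjusted p 0.0235). Within session 1 the day 7 change was 0.83 (limma adjusted p 0.0986). With the animal as a block CX3CR1 changed by 1.54 at day 3 and 1.08 at day 5 and passed on neither (limma adjusted p 0.016 and 0.0139). The day 3 call was lost without animal 4 (adjusted p 0.0141) or animal 7 (0.01), and the day 5 call was lost without any animal but the second (0.0052 to 0.0213). It was also lost at day 5 without the filter on dim probes and with all groups in 1 fit. Of 17 alternatives at day 5, 6 kept the call of the brightest probe and 3 that of the probe at chr2:97257532-97257591.

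**Figure D3:**
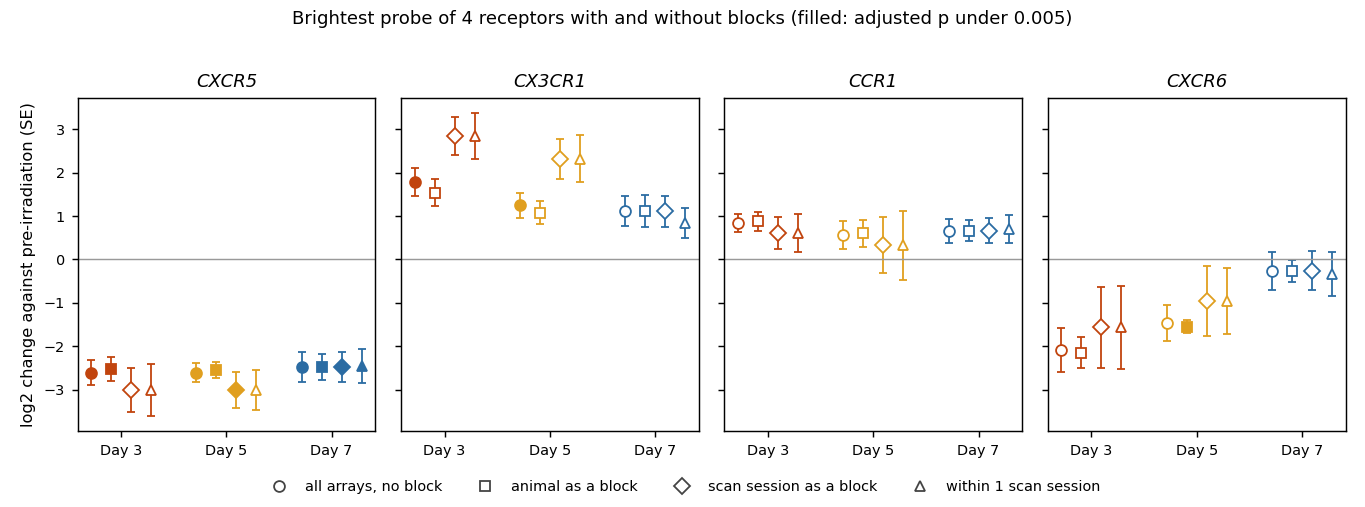
Log2 change against pre-irradiation of the brightest probe of CXCR5, CX3CR1, CCR1 and CXCR6 at each day, with its standard error, over all arrays, with the animal or the scan session as a block, and within 1 scan session. Filled symbols passed an adjusted p under 0.005. CXCR5 stays between −3.01 and −2.45 in every setting drawn, and CX3CR1 ranges from 0.83 to 2.84.

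CCR1, a receptor of monocytes and neutrophils for CCL3, CCL5 and related chemokines, had a mean above that of the controls on each day, without a call in its brightest probe. Its signal was 1234, 1640 and 2183 at the lowest, median and highest control, and 2236, 2648, 3497 and 4050 at day 3, when no array overlapped with the controls. At day 5 the lowest, median and highest were 1113, 2841 and 4605, and at day 7 they were 1153, 2684 and 4766, with animal 4 the lowest on both days. The log2 changes were 0.84 at day 3 (SE 0.21, limma adjusted p 0.00906), 0.56 at day 5 (SE 0.32, adjusted p 0.195) and 0.67 at day 7 (SE 0.28, adjusted p 0.0862). The second CCR1 probe, printed above, was dimmer and well above background on 3 of 7 control arrays. It rose by 1.55 at day 3, where it passed (limma adjusted p 0.00405), and had 1.22 at day 5 (0.0104) and 0.76 at day 7 (0.0844). The day 3 call of this CCR1 probe was lost with the animal as a block (adjusted p 0.00986), with the slide (0.92, 0.511) or session (1.11, 0.305) as a block, without the filter on dim probes (0.00657), and without animal 1, 2, 4 or 7 (0.0275, 0.0132, 0.0303 and 0.00731). With normexp background correction it passed with a change of 0.46. The CCR1 probes correlated with r = 0.81 over the arrays. Within session 2 the brightest probe of CCR1 changed by 0.61 at day 3 and 0.33 at day 5.

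Monocyte, neutrophil and NK-cell markers were followed beside CX3CR1 and CCR1. Of the 10 monocyte markers 9 were tested, and 3, 3 and 1 of them were higher in order of day. Of the 10 neutrophil markers 8 were tested, and CSF3R and MMP25 were higher at days 3 and 5 and none at day 7. Of the 10 NK-cell markers 9 were tested, and 0 passed on any day by limma. Summed monocyte signal lay between 80981 and 135951 on the controls, against 146108 to 211609, 106192 to 200734 and 78848 to 173824 in order of day, so that only the day 3 arrays lay apart from the controls. Summed neutrophil signal was 48531 to 125279, 139220 to 295149, 95146 to 273384 and 62020 to 234429 in the same order, again apart at day 3 alone. Summed NK-cell signal was 329433 to 591344, 422008 to 782713, 332651 to 817424 and 383397 to 882874, overlapping on each day. Platelet markers were higher at day 3 in 8 of 8 genes, from 43639 to 120794 before irradiation to 370340 to 614759. With the session as a block 0 monocyte, neutrophil or platelet markers passed at day 3 or day 5 by limma, with day 3 medians of 0.80, 0.31 and 2.76. The part of these cells in the CX3CR1 and CCR1 values was not tested.

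**Figure D4:**
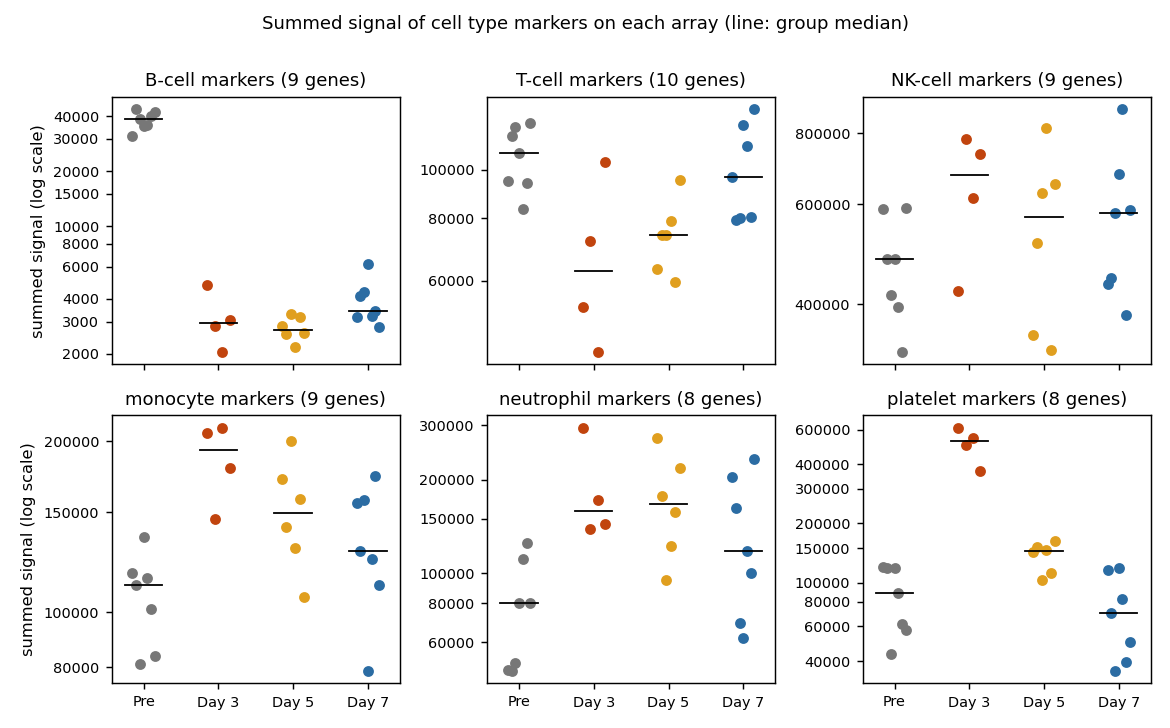
Summed processed signal, on a log axis, of the tested markers of 6 blood cell types on each array before irradiation and at days 3, 5 and 7, with a line for the group median. B-cell signal after irradiation is at most 6210 beside at least 31064 before it, platelet signal is highest at day 3, and NK-cell signal overlaps between all groups.

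CCR2, the CCL2 receptor that releases classical monocytes from the marrow, was at the edge of detection. Its probe was well above background on 0 of 7 control arrays, 0 of 4 at day 3, 3 of 6 at day 5 and 5 of 7 at day 7. Its lowest and highest signals were 14.3 and 46.2 on the controls. After irradiation they were 8.62 and 25.4, then 21.4 and 50.7, then 16.8 and 94.1 in order of day, with overlap between each day and the controls. Where only the brighter group was detected, a fold was computed against the lowest signals detected on the arrays of the dimmer group. For day 7, with 5 of 7 arrays detected, this gave at least 1.23-fold against the controls (limma adjusted p 0.125) and at least 1.69-fold against day 3 (adjusted p 0.067), and neither passed. No fold is given for day 3 or day 5.

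CXCR4, the CXCL12 receptor that retains cells in the marrow, had the smallest spread of the receptors before irradiation, with an SD of 0.19 log2 units. Its signal, from the printed probe with 5 spots an array, was 5253, 5849 and 7343 at the lowest, median and highest control. At day 3 it read 5936, 6522, 7179 and 10365, at day 5 the lowest, median and highest were 5876, 7210 and 12181, and at day 7 they were 2581, 4682 and 7744. The groups overlapped on each day, with 4 of 7 arrays at day 7 below all controls. The log2 changes were 0.24, 0.29 and −0.46 (limma adjusted p 0.316, 0.21 and 0.155). CXCR4 was higher than before irradiation in 4 of 4 animals at day 3 and 6 of 6 at day 5, whereas within session 2 the change was −0.00 and 0.05, the first with its sign turned. From day 5 to day 7 CXCR4 differed by −0.76 log2 units (95% interval −1.34 to −0.17, limma adjusted p 0.137), lower in 6 of 6 animals, which did not pass. Each of these pairs set a session 2 array against a session 1 array. Within session 2, with 1 day 7 array, the change was −0.26.

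Between days after irradiation no receptor probe passed. Of 14 probes 0 passed between day 5 and day 3, beside 0.0184% of all probes, 0 between day 7 and day 3, beside 1.26%, and 0 between day 7 and day 5, beside 0.00369%. At an unadjusted p under 0.05 these counts by limma were 1, 8 and 2 of 14, or 7.14%, 57.1% and 14.3%, beside 10.1%, 32.7% and 20.8% of all probes. For CXCR5 the day 5 and day 3 means differed by −0.00 log2 units (95% interval −0.71 to 0.71), and day 7 and day 3 by 0.13 (95% interval −0.89 to 1.15).

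Among the receptors themselves, CXCR5 and CX3CR1 ran most nearly opposite over the 24 arrays, with r = −0.83, or −0.69 after subtraction of group means. The strongest positive pair was CCR6 and CCR4, with r = 0.59, or 0.49 after subtraction of group means, when CXCR5 and CCR4 had 0.50 (0.02 before it). These correlations share arrays and groups and are given as descriptions. Of 10709 genes with a symbol, the genes whose signal was most like CXCR5 over the 24 arrays were SLC4A1 (r = 0.95), DMTN (0.93) and FGB (0.93). After subtraction of group means these were 0.81, 0.68 and 0.56. SLC4A1 encodes the anion exchanger of red cells, and all 8 erythroid markers tested were lower on each day. Of the 8, 0 passed at day 3 by limma and 7 at day 5 when the session was a block, with medians of −5.06 and −7.32, and within session 1 it was 8 at day 7. Most like CX3CR1 were KLF4 (r = 0.90), SUMF1 (0.89) and SSH3 (0.88), of which KLF4 is a transcription factor of monocytes. Most like CCR1 were CLEC4A (r = 0.91), a C-type lectin of myeloid cells, WDSUB1 (0.88) and SEPT5 (0.86). CXCR6 was most like THNSL2 (r = 0.89), BLOC1S4 (0.89) and MTX2 (0.84), and CCR6 like PLXNA1 (0.87), PRPF40B (0.81) and TNFRSF25 (0.79). CXCR3 was most like NABP2 (r = 0.83), CCNB1 (0.80) and EEF1AKMT4 (0.78), and CCR4 like SOCS2 (0.81) and MKL2 (0.77). CXCR4 was most like FAM227A (r = 0.80), NTN4 (0.78) and NUAK1 (0.78), and CCR2 like CYCS (0.79), LARP4 (0.77) and DGCR8 (0.76). After subtraction of group means the likeness of these genes to their receptor ranged from 0.56 for FGB to 0.92 for NTN4.

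The 14 other chemokine receptors all had probes and 12 were tested. Of these 0 were higher and 2 lower at day 3, 1 higher and 3 lower at day 5, and 0 higher and 2 lower at day 7, with median log2 changes of −0.62, −0.44 and −0.58. The shares of all probes called on these days were 13.5%, 16.7% and 10.9%. ACKR2, a decoy receptor that clears inflammatory CC chemokines, was lower on each day. Its signal of 156 to 384 before irradiation was not well above background on any day 3 array, where it was at least 7.65-fold lower, and at days 5 and 7 it passed with medians of 15.5 and 22.1 beside 177 before irradiation, when 1 of 6 and 2 of 7 arrays were well above background. ACKR1, the Duffy receptor of red cells, changed by −3.78 at day 5 and −3.48 at day 7 in its brightest probe, and its 3 other probes changed by −3.88 to −0.63 and −3.55 to −0.80. CCR7, which brings naive T cells and B cells into lymph nodes, changed by −2.15 at day 3 in its brightest probe and by −1.97 in its other probe, and it passed at day 5 as well (−1.61, limma adjusted p 0.00125). CCRL2, a receptor without G-protein signaling, rose by 1.70 at day 5. With the session as a block ACKR2 alone passed at days 3 and 5, while CCR7 had −1.74 at day 3 (adjusted p 0.16), ACKR1 −6.33 at day 5 (0.00638) and CCRL2 2.71 (0.0384). The animal as a block ended the call of CCR7 at day 3 (adjusted p 0.00746). The call of ACKR2 was lost with the slide as a block at day 3 (0.0298), within session 2 at days 3 and 5 (0.0487 and 0.0325) and within session 1 at day 7 (0.0053).

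Of 32 chemokine ligands, 28 had probes and 16 were tested, with median log2 changes of 1.83, 0.70 and −0.02 on the 3 days. The counts below stand beside 13.5%, 16.7% and 10.9% of all probes called on these days. At day 3, 5 were higher and 0 lower. These included PPBP (3.06) and PF4 (2.38), chemokines of platelet granules that are also in the platelet list, and CCL23, a ligand of CCR1, which was not well above background on any control array and was at least 6.19-fold higher. At day 5, 2 were higher and 1 lower, among them CXCL10 (2.99), a ligand of CXCR3, CCL23 (at least 1.91-fold higher) and XCL1 (−1.43). At day 7 none was higher and 1 was lower, CCL21, a ligand of CCR7, whose probe was well above background on 4 of 7 control and 2 of 7 day 7 arrays with medians of 73.6 and 28.8, and whose other probe gave 0.77. From day 3 to day 5 PPBP differed by −1.99 log2 units, in a comparison that 5 of all probes passed, and its call was lost with the animal as a block (−1.92, adjusted p 0.0762) or the slide as a block (−2.25, 0.249). From day 3 to day 7 the differences were −3.01 for PPBP, −2.98 for PF4 and −2.34 for CXCL3, and none passed with the animal as a block (adjusted p 0.00642, 0.00642 and 0.00718). With the session as a block 0 ligands passed at day 3 or day 5 by limma, where PPBP had 3.44 (adjusted p 0.0235) and PF4 2.03 (0.0782) at day 3 and XCL1 −1.28 (0.196) at day 5, and CXCL10 had no value on the session 2 control. With the animal as a block the calls of CCL23 at day 3 (0.0232), CXCL10 at day 5 (0.00536) and CCL21 at day 7 (0.00568) were lost. The same block gave 4 higher and 1 lower ligands at day 5, so that others gained a call.

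Of 50 genes that carry or end the receptor signal, such as G proteins, arrestins, kinases, Rac activators and integrins, 48 had probes and 47 were tested. At day 3, 10 were higher and 1 lower, at day 5, 8 higher and 2 lower, and at day 7, 1 higher and 2 lower, with median log2 changes of 0.58, 0.34 and 0.11, beside the same 13.5%, 16.7% and 10.9% of all probes called. The platelet, monocyte and neutrophil markers had medians of 2.93, 1.05 and 0.87 at day 3 and 0.11, 0.87 and 0.50 at day 7, and their part in these changes was not tested. ITGB2, the integrin chain of leukocyte adhesion, rose by 1.46, 0.95 and 0.74 on the 3 days, and FERMT3, the kindlin that activates integrins, rose by 1.42 at day 3 and 0.59 at day 5. WAS, which drives actin assembly, rose by 1.07 at both day 3 and day 5. RAP1A, a small GTPase of integrin activation, was lower on each day, with −1.28, −1.56 and −1.85. RHOH changed by −0.95 at day 5 and SWAP70 by −0.99 at day 7, with −0.98 in its other probe. With the animal as a block 0 of 47 genes passed at day 3 by limma, where ITGB2 and FERMT3 had adjusted p of 0.00529 and 0.00505 and RAP1A 0.0133, and 4 higher and 3 lower passed at day 5. With the session as a block 0 of 47 passed at days 3 and 5, where ITGB2 had 1.33 (0.0343) and FERMT3 1.37 (0.0212) at day 3. At day 7 ITGB2 was not called with the animal as a block (0.00714) or within session 1 (0.00704).

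**Figure D5:**
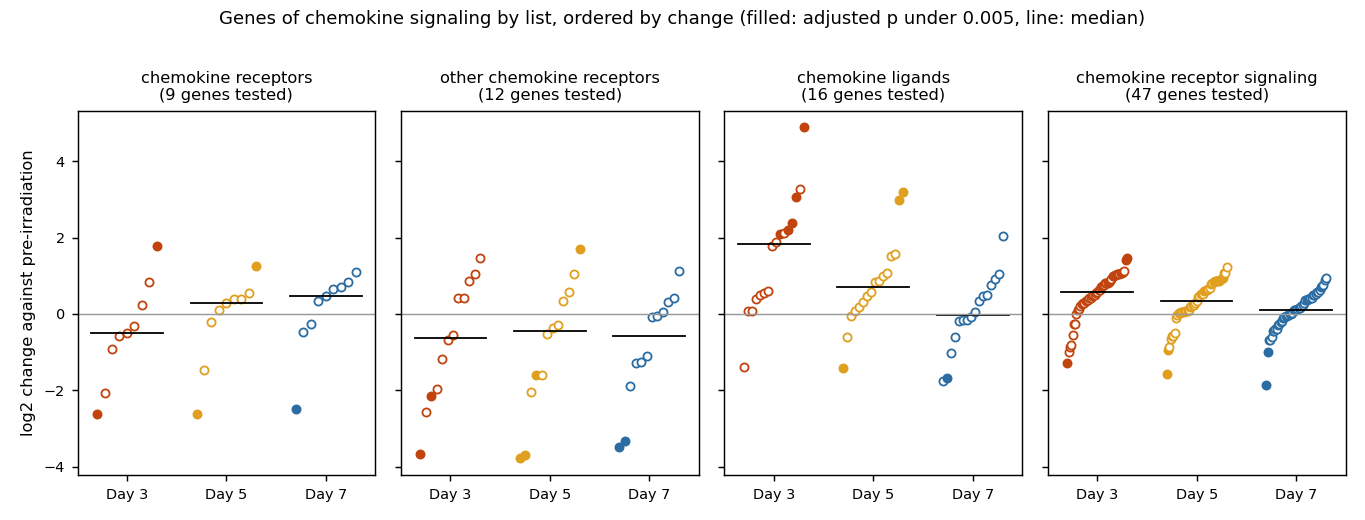
Log2 change against pre-irradiation of the brightest probe of each tested gene in 4 lists, ordered by size within each day, with a line for the median of the list; filled points passed an adjusted p under 0.005. Chemokine ligands have the highest median at day 3, 1.83, and the 9 receptors have 1 point above and 1 below 0 that passed at days 3 and 5, and 1 below 0 at day 7.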

How the data were processed

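Whole-blood RNA was measured on one-colour Agilent arrays. Per the file headers and labels, the authors used Agilent Feature Extraction (10.7 in the labels), whose deposited intensity is background-subtracted with low values replaced. The authors' deposited series matrix holds log2 values normalized to the median array. The labels and headers name a rhesus array, the methods a human one. Here log2 of the processed signal was taken, non-uniform and outlier spots were left out, saturated spots were kept, spots of a probe were averaged, and arrays were aligned to the median array by subtracting the median of their differences from it. Probes well above background on 4 or more of 24 arrays were tested (27133 of 43603). Each comparison was fitted alone with limma 3.58.1 in R 4.3.3, at a Benjamini-Hochberg adjusted p under 0.005, and tested on simulated data. Figures used Python 3.11.15 and matplotlib 3.10.9.

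The members and lists were chosen with earlier results of these data known. All receptors are named, and from each other list the 3 called genes with the largest change of a day, plus the 3 genes most like each receptor, except that some genes are not reported here. Names came from the scanner output for 23052 probes and from RefSeq for 885. Replicate numbers were taken to pair the arrays. Deviations from the group means of same-numbered arrays had r of 0.133 to 0.409 (pre-irradiation and day 3), 0.171 to 0.458 (day 5) and 0.129 to 0.440 (day 7). Medians for other numbers were negative, but subtracting group means by itself pushes these down. Same-numbered arrays also share sex and, between pre-irradiation and day 7, a slide, so these values cannot show that a number is 1 animal. The labels do not say that a number is 1 animal, but it is called an animal here. Alternatives were other normalizations, background correction, filters, the series matrix, 1 fit of all groups, blocks, single sessions and leaving out each number. The blocks of the other gene lists and marker lists were chosen after seeing the data.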

Additional observations from a re-analysis of the deposited data

How the results depend on the processing

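The 14 receptor probes were recomputed under each alternative, and no change of a receptor's brightest probe that had passed turned its direction. At day 3 the 6 probes that passed became 1 with the replicate number as a block (CXCR5), 0 with the slide as a block, 0 with the scan session as a block and 0 within session 2, and ranged from 1 to 6 when an animal was left out (1 without animal 4, 3 without animal 7). Over all probes the day 3 count of 3652 became 751 with the replicate block, 37 with the session as a block and 0 with the slide as a block or within session 2, and lay between 864 (without animal 4) and 3492 (without animal 5) when an animal was left out. At day 5 the 4 probes became 2 with no filter on dim probes, 2 with all groups in 1 fit, 1 with the session as a block and 0 within session 2, and ranged from 2 to 3 when an animal was left out (2 without any animal but the second). Over all probes the day 5 count of 4543 became 383 with the session as a block and 177 within session 2, and lay between 2714 (without animal 1) and 4296 (without animal 5) when an animal was left out. Between day 5 and day 3 the count of 5 over all probes became 0 with the replicate or slide block, quantile normalization, no filter, all groups in 1 fit or without animal 1, 2, 3 or 6. Between day 7 and day 3 the count of 343 over all probes became 0 with each block and within session 2, 78 with no filter, 553 with only probes well above background on every array of 1 group, 2177 with all groups in 1 fit and 0 to 249 when an animal was left out, and between day 7 and day 5 the count of 1 became 15 with normexp. The replicate block gave 4 probes at day 5, both of CXCR5 and both of CXCR6 with CX3CR1 lost, and 1 at day 7. At day 7 the count of receptor probes was 1 under all alternatives run, and between days it was 0. Over all probes the day 7 count of 2951 lay between 1654 (without animal 1) and 2576 (without animal 6) when an animal was left out. The slide could not be used as a block for day 5 against pre-irradiation or day 7, which share no slide, and the cause of the lost calls was not tested. Among the recomputed changes of a receptor's brightest probe against pre-irradiation 451 stayed on their side of the threshold, 21 lost a call and 2 gained one, CCR1 at day 3 with normexp (adjusted p 0.00191) and CXCR6 at day 5 with the replicate block (adjusted p 0.00042). CCR2 near background limits what its probe can show.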
